A study of Mus musculus with 11 samples.

Results

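The comparison is between day 2 and day 1 of a differentiation of mouse E14 cells, a line of embryonic stem cells, toward ventral hindbrain neurons. It rests on 4 of the 11 libraries of the series, 2 for day 2 and 2 for day 1, taken by the day named in their labels, and on all genes of the count table. Day 2 libraries held wild type 129 cells kept in monolayer with retinoic acid (RA) and SAG, a small molecule agonist of Smoothened that switches on the hedgehog pathway. Day 1 libraries held the same line under the same agents a day earlier. RA and SAG were applied over days 0 to 3, no culture without them was among these libraries, and all libraries came from 1 cell line, so time in culture and time under the agents cannot be told apart. Polyadenylated RNA was sequenced, and 16810 of 38197 genes passed the filter on low counts and were tested. Levels are CPM, counts scaled by library size and TMM factor, in the order replicate 1 and replicate 2. Brackets hold the log2 fold change ± SE (log2) and the adjusted p. A call is said to be lost where its adjusted p, then given in brackets, passed 0.05 on removal of 1 library or with an offset for GC content. Losses under other settings stand with the dependence on processing.

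RA is carried to the nucleus by binding proteins and activates RA receptors, which switch on Hox genes and, as a brake, the enzymes that break RA down. Hedgehog ligand binds its receptor Ptch1 and so lifts the restraint on Smoothened, Gli transcription factors then act, and Ptch1, Gli1 and Hhip are their classical feedback targets. In the neural tube the floor plate, a ventral midline tissue, makes the ligand Shh, and graded hedgehog signaling sets up ventral progenitor domains marked by Nkx2-2, Olig2 and Nkx6-1. Neural progenitors use Notch signaling to hold back proneural factors until neurons form.

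The day 2 libraries held 26926637 and 27074093 counts, and the day 1 libraries 27969548 and 30097304. A level of 3 counts, from 0.0936 to 0.112 CPM in these 4 libraries, was treated as the floor. Log2 differences between the 2 libraries of a day spread with an SD of 0.28 for day 2, against 0.493 for day 1, and ran with GC content on both days. Across genes, the difference of replicate 1 from replicate 2 had a Spearman rho with GC content of -0.355 at day 2 and -0.704 at day 1. Whether the 2 libraries of a day were separate cultures is not stated in the labels. A p-value therefore sets a change against the spread between libraries, which may not be that between cultures. The spread was estimated over the 8 unsorted libraries of days 0 to 3. Days 0 and 3, which are outside the comparison, had SDs of 0.5 and 0.394 by the same measure.

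At day 2, 1623 genes were higher than at day 1, which is 9.65% of those tested, and 1679 were lower, which is 9.99%, so that 19.6% were called in all (edgeR quasi-likelihood test, Benjamini-Hochberg adjusted p below 0.05). Many changes were large: 485 higher and 640 lower genes differed at least 4-fold. Among protein-coding genes 1476 of 13815 were higher and 1454 lower, and among long intergenic noncoding RNAs 16 of 136 were higher and 17 lower. Higher genes made up 49.2% of the calls. They made up 39.7% after an offset for GC content and 36% with log2(FPKM + 1) without a filter, and the log2 fold change had a Spearman rho of 0.327 with GC content across genes. The part of GC content in single results was not tested beyond that offset. In RNA from whole cultures, fewer cells of a type and less RNA per cell cannot be told apart.

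**Figure D1:**
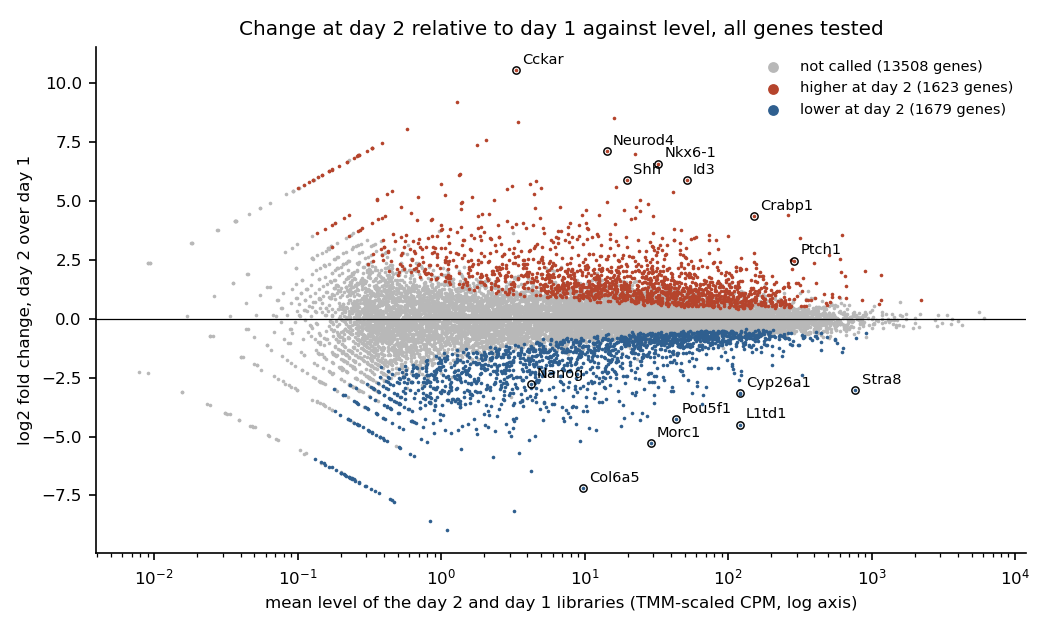
Each point is a gene tested, with its mean level over the day 2 and day 1 libraries (TMM-scaled CPM, log axis) against its log2 fold change of day 2 over day 1. Red marks 1623 higher genes, blue 1679 lower genes and grey the genes not called, and named genes are circled.

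Stem cell markers were lower at day 2, and neural progenitor and floor plate markers were higher. Summed over Pou5f1, Nanog, Zfp42, Sox2 and Utf1, the stem cell markers held 183 and 156 CPM at day 2, against 210.0 and 254 CPM at day 1. Of these 5, 4 fell, and Sox2, which neural progenitors also express and which made up most of the sum at day 2, was not called. Neural progenitor markers summed to 484 and 528 CPM at day 2, against 194 and 174 CPM at day 1, with 4 of 5 higher, and floor plate markers to 161 and 91.1 CPM at day 2, against 9.17 and 10.1 CPM at day 1, with 4 of 4 higher. The groups did not overlap in these 3 sums, nor in any sum below except that of trophoblast markers. With 2 libraries a day, a lack of overlap is weak evidence and often came without a call. Of 25 mitosis genes tested, 2 were higher and 14 lower without overlap, and 1 was called. Of 28 DNA replication genes, 12 were higher and 7 lower without overlap, and 1 was called. The share without overlap over all genes tested is not given here. Neuron markers summed to 87.8 and 71.4 CPM at day 2, against 102 and 95.5 CPM at day 1, but without Stmn2, left out after its values were seen, to 67.7 and 56.1 CPM at day 2, against 34.6 and 35.5 CPM at day 1. Of these 4, Dcx and Elavl3 rose, Stmn2 fell and Map2 was not called. Mesoderm markers were sparse, with 2.79 and 2.47 CPM at day 2, against 9.35 and 8.99 CPM at day 1, and so were neural crest markers, with 2.68 and 2.84 CPM at day 2, against 3.17 and 3 CPM at day 1. Extraembryonic endoderm markers gave 149 and 125.8 CPM at day 2, against 93.3 and 79.2 CPM at day 1. Fibroblast or muscle markers gave 124 and 95.5 CPM at day 2, against 15.2 and 19.9 CPM at day 1, with most of the day 2 sum from Acta2. Endothelial or blood markers gave 4.95 and 5.45 CPM at day 2, against 22.8 and 25.4 CPM at day 1. Most of the day 1 sum came from Pecam1, which stem cells also express and which fell. Cdh5 went the other way and was called higher, with 4.61 and 3.82 CPM at day 2, against 0.755 and 1.19 CPM at day 1. How the Cdh5 call fares under other settings is not given here. The leukocyte gene Ptprc was at 0 in replicate 1 of both days. In each of the mesoderm, neural crest and endothelial or blood lists, 1 marker did not pass the filter. Trophoblast markers gave 30.3 and 25 CPM at day 2, against 15 and 25.3 CPM at day 1.

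Hedgehog receptors, co-receptors, Gli factors and targets, taken as 1 list, mostly rose. Of its members, Boc, Cdon, Gas1 and Gli3 are known to be held down by hedgehog signaling in the neural tube, so the count is not one of induced targets alone. The list had 11 higher, 0 lower (0 at an unadjusted p under 0.05, 0 by DESeq2) and 1 not called of 12 tested, with a median log2 fold change of 1.65 beside -0.003 over all genes tested. Ptch1 (GRCm38 chromosome 13, 63508328 to 63573598), the receptor that restrains Smoothened, had 515 and 466 CPM at day 2, against 73.8 and 103 at day 1 (log2 2.47 ± 0.19, adjusted p = 0.000128). Gli1, a transcription factor that is itself induced by the pathway, had 76.5 and 77.1 CPM at day 2, against 5.5 and 9.61 at day 1 (log2 3.34 ± 0.39, adjusted p = 0.000741). Both day 2 libraries lay several times above both day 1 libraries for either gene. Mycn, a growth-promoting transcription factor, had 93.3 and 93 CPM at day 2, against 17.4 and 17 at day 1 (log2 2.44 ± 0.21, adjusted p = 0.000191). The cyclin gene Ccnd1 had 222 and 177 CPM at day 2, against 39.2 and 48.9 at day 1 (log2 2.18 ± 0.20, adjusted p = 0.000244). These 2 genes had stood at 95.1 ± 18.4 and 175 ± 33.8 CPM at day 0 (mean ± SD, n = 2), above their day 1 levels. Rab34, a small GTPase needed to build cilia, changed by 1.53 ± 0.17 on the log2 scale, and Gli2, the main activator among Gli factors, by 1.71 ± 0.32. Hhip, which binds and sequesters the ligand, had 20.1 and 18.4 CPM at day 2, against 9.17 and 7.09 at day 1 (log2 1.24 ± 0.28, adjusted p = 0.0157). Gli3, which acts mainly as a repressor, had a log2 fold change of 0.76 ± 0.23, adjusted p = 0.0447. Of the co-receptors, Boc rose (1.97 ± 0.30, adjusted p = 0.00269). Gas1 rose by a smaller log2 fold change (1.03 ± 0.32, adjusted p = 0.0485), while Cdon was not called (0.22 ± 0.18, adjusted p = 0.404). Hedgehog receptors, Gli factors and targets called higher numbered 7 on removal of day 2 replicate 1 and 6 on removal of day 2 replicate 2. Gas1 (0.0934), Gli3 (0.156) and Hhip (0.112) lost the call on removal of day 2 replicate 1, and Gas1 (0.291), Gli3 (0.19), Gli2 (0.0563) and Hhip (0.0722) lost it on removal of day 2 replicate 2. Gas1 (0.0764) and Gli3 (0.0927) lost the call on removal of day 1 replicate 1, and Gas1 (0.119) and Gli3 (0.102) lost it on removal of day 1 replicate 2. Gas1 (0.813), Rab34 (0.124) and Gli2 (0.0535) lost the call with a GC offset.

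Genes that carry the hedgehog signal rose in part. Their list, with cilium genes, had 7 higher, 0 lower (2 at an unadjusted p under 0.05, 1 by DESeq2) and 11 not called of 18 tested, with a median log2 fold change of 0.73. The largest change among its called genes was that of Scube1, one of a family of secreted proteins that release the lipid-bound ligand, with 31.8 and 28.2 CPM at day 2, against 2.37 and 3.65 at day 1 (log2 3.31 ± 0.40, adjusted p = 0.000801). Scube3 and Scube2 of the same family had log2 fold changes of 1.70 ± 0.29 and 1.49 ± 0.28. Smo, which encodes Smoothened, the target of SAG, had 184 and 196 CPM at day 2, against 76.8 and 104 at day 1 (log2 1.07 ± 0.23, adjusted p = 0.0127). Sufu, which holds Gli factors in the cytoplasm, had a log2 fold change of 0.70 ± 0.20, adjusted p = 0.0417 and Gpr161, a ciliary receptor that restrains the pathway, of 1.26 ± 0.26, adjusted p = 0.0103. Kif7, Evc, Disp1 and Ift88 were among the 11 genes not called. Hedgehog transducer and cilium genes called higher numbered 3 on removal of day 2 replicate 1, 2 on removal of day 2 replicate 2 and 3 on removal of day 1 replicate 1. Smo (0.0657), Sufu (0.175) and Gpr161 (0.0694) lost the call on removal of day 2 replicate 1, and Scube2 (0.081), Smo (0.073), Sufu (0.193) and Gpr161 (0.0756) lost it on removal of day 2 replicate 2. Smo (0.0704), Sufu (0.204) and Gpr161 (0.0596) lost the call on removal of day 1 replicate 1, and Smo (0.0947) and Sufu (0.392) lost it with a GC offset.

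**Figure D2:**
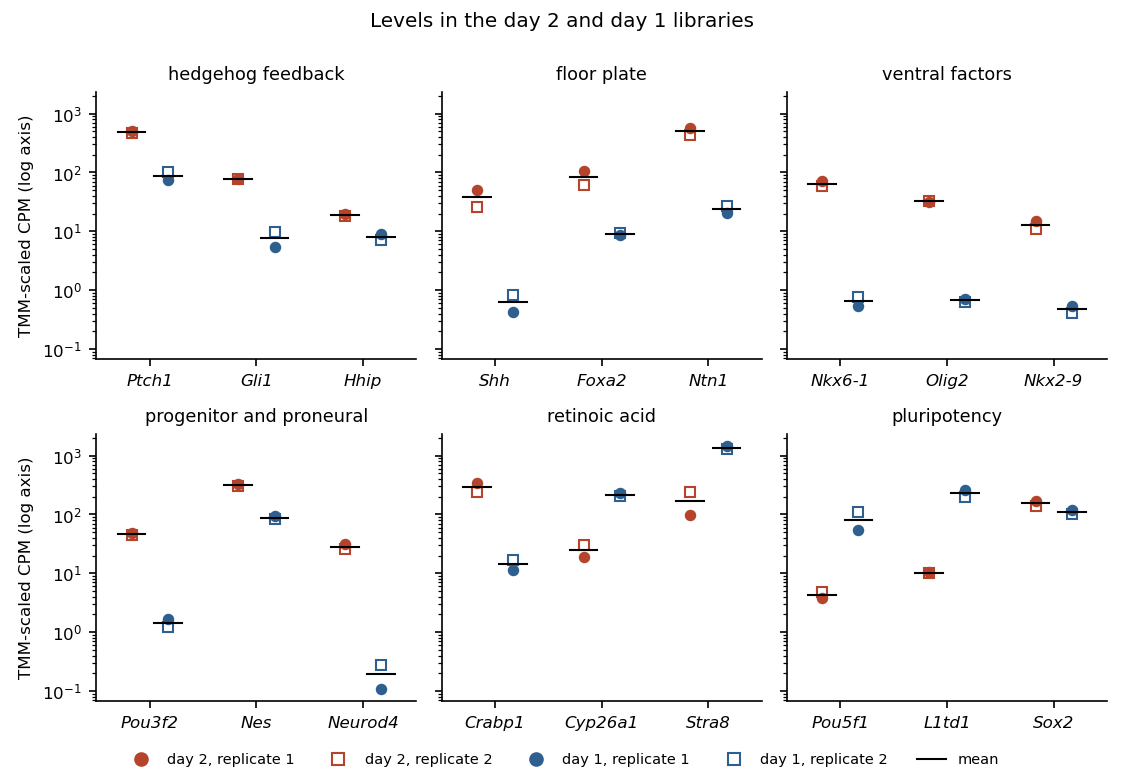
TMM-scaled CPM (log axis) of 18 genes in 6 groups, day 2 in red and day 1 in blue, with circles for replicate 1, squares for replicate 2 and black lines for means. The day 2 and day 1 libraries did not overlap for any of these genes, and Hhip and Sox2 show the smallest gaps. A lack of overlap is not a call, and Sox2 was not called.

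Floor plate genes rose at day 2, many of them by large factors. Their list had 14 higher, 0 lower (0 at an unadjusted p under 0.05, 0 by DESeq2) and 5 not called of 19 tested, with a median log2 fold change of 3.22. Shh (GRCm38 chromosome 5, 28456815 to 28467256), the ligand, had 50.8 and 26.4 CPM at day 2, against 0.432 and 0.843 at day 1 (log2 5.89 ± 0.58, adjusted p = 0.000297). Foxa2, the forkhead factor that installs the floor plate and drives Shh, had 105 and 62.4 CPM at day 2, against 8.71 and 9.21 at day 1 (log2 3.22 ± 0.32, adjusted p = 0.000314). For both genes day 2 replicate 1 stood well above day 2 replicate 2, and both libraries stood above day 1. Foxa1, its relative, had 34.7 and 26.7 CPM at day 2, against 16 and 10.9 at day 1 (log2 1.19 ± 0.27, adjusted p = 0.0153). Secreted guidance cues of the floor plate were prominent: Ntn1, encoding netrin, had 562 and 435 CPM at day 2, against 20.3 and 26.7 at day 1 (log2 4.41 ± 0.31, adjusted p = 8.96e-05). Slit1, a repellent of commissural axons, had 91.5 and 69.6 CPM at day 2, against 0.863 and 2.93 at day 1 (log2 5.38 ± 0.56, adjusted p = 0.000386). Slit2 and Slit3 had log2 fold changes of 2.72 ± 0.35 and 3.46 ± 0.37. Spon1, encoding the matrix protein F-spondin, had 34.8 and 37.8 CPM at day 2, against 1.76 and 1.15 at day 1 (log2 4.64 ± 0.47, adjusted p = 0.000348). Nog, encoding the BMP antagonist noggin, had 11.6 and 5.82 CPM at day 2, against 0.252 and 0.187 at day 1 (log2 5.29 ± 0.58, adjusted p = 0.000504). At low counts, the bHLH factor gene Ferd3l had 43 and 20 counts at day 2, against 0 and 0 at day 1, which is at least 11.5-fold higher when the 2 day 1 libraries are set to the floor of 3 counts each (adjusted p = 0.0183). Not every member was called. Sulf1, a heparan sulfate sulfatase, had 258 and 157 CPM at day 2, against 149.8 and 133.03 at day 1. Its day 2 libraries stood above both day 1 libraries, but it was not called (adjusted p = 0.294). Lmx1a was not called either, at 1.67 and 1.38 CPM at day 2, against 1.94 and 2 at day 1. Foxa1 (0.137) and Ferd3l (0.0736) lost the call on removal of day 2 replicate 1, and Foxa1 (0.0985) lost it with a GC offset.

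Transcription factors of the ventral domains had 10 higher, 1 lower and 5 not called of 16 tested, with a median log2 fold change of 3.43. Nkx6-1 (GRCm38 chromosome 5, 101658139 to 101664996), a homeobox factor of the ventral progenitors, had the smallest adjusted p of all genes, with 70.8 and 58.3 CPM at day 2, against 0.54 and 0.78 at day 1 (log2 6.59 ± 0.25, adjusted p = 1.12e-05). Olig2, the bHLH factor of motor neuron progenitors, had 32.1 and 33.2 CPM at day 2, against 0.719 and 0.624 at day 1 (log2 5.60 ± 0.54, adjusted p = 0.000275). Nkx2-9 had 14.8 and 11.1 CPM at day 2, against 0.54 and 0.406 at day 1 (log2 4.77 ± 0.47, adjusted p = 0.000306). In all 3 genes the day 1 libraries were below 1 CPM and the day 2 libraries above 10 CPM. The most ventral progenitor factor, Nkx2-2, was only starting, with 61 and 28 counts at day 2, against 3 and 2 at day 1, or 2.27 and 1.02 against 0.108 and 0.0624 CPM (log2 4.22 ± 0.64, adjusted p = 0.00254). Nkx6-2 had 5.24 and 4.11 CPM at day 2, against 0.216 and 0.593 at day 1 (log2 3.49 ± 0.53, adjusted p = 0.00255) and Olig1 1.97 and 2.18 CPM at day 2, against 0 and 0.343 at day 1 (log2 3.501 ± 0.88, adjusted p = 0.0244). Of factors of the domains above, Dbx1 of the p0 domain had 2.16 and 5.24 CPM at day 2, against 0.144 and 0.187 at day 1 (log2 4.44 ± 1.12, adjusted p = 0.0283). Foxn4, a factor of V2 interneuron progenitors, fell (-2.13 ± 0.52, adjusted p = 0.022), and Olig3, at 4.91 and 2.51 CPM at day 2, against 8.53 and 7.65 at day 1, was not called. Ventral domain factors called higher numbered 6 on removal of day 2 replicate 1, 6 on removal of day 2 replicate 2 and 6 on removal of day 1 replicate 1. Olig1 (0.0902), Dbx1 (0.0526) and Foxn4 (0.176) lost the call on removal of day 2 replicate 1, and Olig1 (0.0882) and Dbx1 (0.119) lost it on removal of day 2 replicate 2. Olig1 (0.0529) and Dbx1 (0.105) lost the call on removal of day 1 replicate 1, and Dbx1 (0.0533) and Foxn4 (0.0541) lost it on removal of day 1 replicate 2.

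The 12 largest rises, among genes with at least 5 CPM at day 2 and no overlap with day 1, included several neural genes. Cckar, encoding a cholecystokinin receptor, had 243 and 115 counts at day 2, against 0 and 0 at day 1, at least 65.6-fold higher against the floor of 3 counts in each day 1 library (adjusted p = 0.000759). Vtn, encoding the matrix protein vitronectin, had 42.7 and 21.1 CPM at day 2, against 0 and 0.156 at day 1 (adjusted p = 0.000209). Angptl1, encoding a secreted angiopoietin-like protein, had 9 and 4.65 CPM at day 2, against 0 and 0.0312 at day 1 (adjusted p = 0.000645). As for Shh, day 2 replicate 1 was about 2-fold above replicate 2 for each of these 3 genes. The others were Neurod4, Fgf15, Nkx6-1, Shh, Id3, Wnt1, Olig2, Neurog2 and Nhlh1, which are described with their groups.

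Neural progenitor genes had 20 higher, 0 lower (0 at an unadjusted p under 0.05, 0 by DESeq2) and 4 not called of 24 tested, with a median log2 fold change of 2.30. The POU factor Pou3f2 had 48.9 and 45.3 CPM at day 2, against 1.65 and 1.22 at day 1 (log2 5.04 ± 0.28, adjusted p = 6.89e-05). Its relatives Pou3f3 and Pou3f4 had log2 fold changes of 3.65 ± 0.42 and 3.34 ± 0.46. Ednrb, the endothelin B receptor, had 190.3 and 176 CPM at day 2, against 17.8 and 14.1 at day 1 (log2 3.52 ± 0.22, adjusted p = 7.41e-05). The chemokine receptor gene Cxcr4 had 70.5 and 43.9 CPM at day 2, against 2.84 and 2.65 at day 1 (log2 4.38 ± 0.30, adjusted p = 8.36e-05). Both day 2 libraries were more than 9 times both day 1 libraries in these 3 genes. The orphan nuclear receptors Nr2f1 and Nr2f2 changed by 3.66 ± 0.30 and 3.15 ± 0.21 on the log2 scale, Sox11 by 2.66 ± 0.24, Sox21 by 2.01 ± 0.20 and Msi1, encoding the RNA-binding protein musashi, by 2.21 ± 0.21. Markers of the neuroepithelium rose as well: the intermediate filament gene Nes had 327 and 301 CPM at day 2, against 92.6 and 84 at day 1 (log2 1.83 ± 0.20, adjusted p = 0.000451). Vim had 725 and 617 CPM at day 2, against 123 and 134 at day 1 (log2 2.38 ± 0.20, adjusted p = 0.000164). Prom1, encoding the surface protein Prominin-1, had 163 and 135 CPM at day 2, against 63.3 and 52.8 at day 1 (log2 1.36 ± 0.18, adjusted p = 0.00122). Sox1, an early marker of the neural lineage, had 88.3 and 88.8 CPM at day 2, against 46.1 and 36.2 at day 1 (log2 1.11 ± 0.22, adjusted p = 0.00843). The radial glia gene Fabp7 was low at 3.42 and 3.74 CPM at day 2, against 0.755 and 0.593 at day 1 (log2 2.41 ± 0.42, adjusted p = 0.00524). Sox9 was not called (0.61 ± 0.32, adjusted p = 0.2). Sox1 (0.0581) lost the call on removal of day 2 replicate 1, and Sox1 (0.0509) lost it on removal of day 2 replicate 2. Sox1 (0.386) lost the call with a GC offset.

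Notch pathway genes rose as a group, with 15 higher, 0 lower (0 at an unadjusted p under 0.05, 0 by DESeq2) and 7 not called of 22 tested and a median log2 fold change of 1.66. The ligand gene Jag1 had 57.8 and 48.1 CPM at day 2, against 6.26 and 6.27 at day 1 (log2 3.08 ± 0.19, adjusted p = 7.41e-05). The ligand genes Dll1 and Dll4 had log2 fold changes of 1.49 ± 0.29 and 3.70 ± 0.79. The receptor gene Notch1 had 74.9 and 95.2 CPM at day 2, against 16.4 and 28.2 at day 1 (log2 1.93 ± 0.32, adjusted p = 0.00371), while Notch2 and Notch3 changed by 1.14 ± 0.20 and 2.26 ± 0.39. Targets of the pathway rose too: Nrarp, a feedback inhibitor, had 15.5 and 14.4 CPM at day 2, against 1.58 and 1.09 at day 1 (log2 3.49 ± 0.30, adjusted p = 0.000186). Hey1 had 19.4 and 13.1 CPM at day 2, against 1.55 and 1.5 at day 1 (log2 3.41 ± 0.32, adjusted p = 0.000264). Hes1 had 57.7 and 52.1 CPM at day 2, against 17.1 and 15.2 at day 1 (log2 1.77 ± 0.37, adjusted p = 0.0116). No day 2 library overlapped a day 1 library in these 5 genes. Lfng, a glycosyltransferase that tunes the receptors, changed by 1.70 ± 0.42, adjusted p = 0.023, and Hes3, at 18 and 14 counts at day 2, against 3 and 2 at day 1, by 2.75 ± 0.71, adjusted p = 0.0266. Dll3, Jag2, Hes6 and Rbpj were among the 7 genes not called. Notch pathway genes called higher numbered 9 on removal of day 2 replicate 1. Notch2 (0.0526), Hes1 (0.0626), Lfng (0.111) and Hes3 (0.182) lost the call on removal of day 2 replicate 1, and Dll1 (0.0511), Dll4 (0.0582), Lfng (0.0786) and Hes3 (0.108) lost it on removal of day 2 replicate 2. Dll4 (0.056), Lfng (0.105) and Hes3 (0.0966) lost the call on removal of day 1 replicate 1, and Hes3 (0.1) lost it on removal of day 1 replicate 2. Hes3 (0.0777) lost the call with a GC offset.

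Hes5, the effector through which Notch holds neural progenitors, reached a low level at day 2 and had next to no reads at day 1. It had 75 and 147 counts at day 2, against 0 and 1 at day 1, or 2.79 and 5.34 CPM at day 2 (adjusted p = 0.000552). Its promoter is shown because it carries the letters that Rbpj, the DNA-binding partner of Notch, is known to prefer. The 250 bases before its start (RefSeq, GRCm38.p6, chr4:154960673-154960922, plus strand) are given 5′ to 3′ along the gene, with matches to GTGGGAA on either strand in capitals.
Hes5: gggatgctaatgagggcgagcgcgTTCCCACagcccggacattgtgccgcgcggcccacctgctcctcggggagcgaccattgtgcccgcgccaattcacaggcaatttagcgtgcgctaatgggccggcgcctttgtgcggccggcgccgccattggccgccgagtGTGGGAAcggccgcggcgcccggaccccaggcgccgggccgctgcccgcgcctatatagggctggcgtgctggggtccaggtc
There are 2 matches, 1 on each strand. Of 32851 RefSeq promoter windows of this length, 5.42% hold at least 1 match, and of the 15 genes of the Notch list with a window, to which Hes5 does not belong here, 2 do, Hey2 and Lfng. A match describes the letters and is not shown here to be a bound site.

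Proneural and early neuronal genes had 16 higher, 3 lower and 11 not called of 30 tested, with a median log2 fold change of 1.31. The bHLH genes Neurod4, Neurog2 and Nhlh1, which drive or follow the choice of a neuronal fate, were close to absent at day 1. Neurod4 had 30.9 and 25.7 CPM at day 2, against 0.108 and 0.281 at day 1 (log2 7.12 ± 0.32, adjusted p = 1.81e-05). Neurog2 had 6.54 and 12.8 CPM at day 2, against 0.324 and 0.0936 at day 1 (log2 5.54 ± 0.94, adjusted p = 0.0043). Nhlh1 had 5.32 and 5.93 CPM at day 2, against 0.18 and 0.0624 at day 1 (log2 5.53 ± 0.45, adjusted p = 0.000156). The groups did not overlap in any of them. Neurog1 reached only 0.855 and 1.67 CPM (log2 3.22 ± 0.72, adjusted p = 0.0151). Early neuronal genes rose as well. Dcx, a microtubule protein of migrating neurons, had 8.4 and 11.3 CPM at day 2, against 2.23 and 1.94 at day 1 (log2 2.24 ± 0.24, adjusted p = 0.00042). Elavl3, an RNA-binding protein of new neurons, had 12 and 12.8 CPM at day 2, against 2.77 and 3.93 at day 1 (log2 1.88 ± 0.23, adjusted p = 0.000968). The 3 genes called lower belong to the neuronal cytoskeleton. Stmn2 had 20.04 and 15.3 CPM at day 2, against 67.4 and 60.02 at day 1 (log2 -1.85 ± 0.17, adjusted p = 0.000264) after 310.1 ± 24 CPM at day 0 (mean ± SD, n = 2), and Ina and Mapt had log2 fold changes of -0.85 ± 0.21 and -1.34 ± 0.41. The neurofilament gene Nefm was not called (0.53 ± 0.24, adjusted p = 0.138). Proneural and early neuronal genes called lower numbered 1 on removal of day 2 replicate 1 and 5 with a GC offset. Ina (0.202) and Mapt (0.259) lost the call on removal of day 2 replicate 1, and Neurog1 (0.104) and Mapt (0.13) lost it on removal of day 2 replicate 2. Neurog1 (0.0686) and Ina (0.0595) lost the call on removal of day 1 replicate 1, and Mapt (0.133) lost it on removal of day 1 replicate 2.

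Motor and serotonergic neuron factors had 4 higher, 1 lower and 10 not called of 15 tested. Tbx20 (GRCm38 chromosome 9, 24718138 to 24774303), a T-box factor of hindbrain motor neurons, had 13.3 and 6.25 CPM at day 2, against 1.98 and 1.53 at day 1 (log2 2.48 ± 0.45, adjusted p = 0.00584). It was higher in day 2 replicate 1 than in replicate 2. Lhx4 had 1.78 and 2.33 CPM at day 2, against 0.144 and 0.281 at day 1 (log2 3.23 ± 0.59, adjusted p = 0.00593). Isl1, which marks newborn motor neurons, had 3.79 and 4.36 CPM at day 2, against 1.76 and 1.9 at day 1 and was not called (adjusted p = 0.0643), and Phox2a, at 0.483 and 1.16 CPM at day 2, against 0.468 and 1.15 at day 1, did not pass either. Tph2, the enzyme of serotonin synthesis in neurons, fell at low levels (-1.69 ± 0.49, adjusted p = 0.0398). Tph2 (0.136) lost the call on removal of day 2 replicate 1, and Tph2 (0.257) lost it on removal of day 2 replicate 2. Tph2 (0.214) lost the call on removal of day 1 replicate 1.

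RA handling genes moved both ways. The list of synthesis, binding and breakdown genes had 4 higher, 4 lower and 6 not called of 14 tested. Crabp1, which binds RA in the cytoplasm, had 338 and 243 CPM at day 2, against 11.5 and 16.9 at day 1 (log2 4.35 ± 0.28, adjusted p = 7.48e-05). Rdh10, which makes the RA precursor, had 81.6 and 59.5 CPM at day 2, against 23.2 and 17 at day 1 (log2 1.81 ± 0.24, adjusted p = 0.00129). Cyp26a1 (GRCm38 chromosome 19, 37697798 to 37701536), the main enzyme of RA breakdown, fell, with 19.3 and 30.1 CPM at day 2, against 234 and 203 at day 1 (log2 -3.15 ± 0.28, adjusted p = 0.000192). Its relative Cyp26b1 had 3.79 and 11.7 CPM at day 2, against 22.2 and 21.5 at day 1 (log2 -1.50 ± 0.44, adjusted p = 0.0421). The day 2 and day 1 libraries did not overlap in any of the 4 genes. The RA-making enzymes split: Aldh1a1 had 10.9 and 9.45 CPM at day 2, against 1.37 and 1.25 at day 1 (log2 2.96 ± 0.65, adjusted p = 0.014). Aldh1a2 had 1.49 and 3.02 CPM at day 2, against 7.41 and 6.21 at day 1 (log2 -1.59 ± 0.43, adjusted p = 0.0302). Crabp2, which hands RA to its receptors, had 575 and 696 CPM at day 2, against 388 and 387 at day 1 (log2 0.71 ± 0.21, adjusted p = 0.0416). Dhrs3, a reductase that limits RA, had 9.07 and 36.2 CPM at day 2, against 57 and 71.3 at day 1 and was not called (adjusted p = 0.0703), with day 2 replicate 2 about 4 times replicate 1. RA handling genes called higher numbered 2 on removal of day 2 replicate 1 and 2 on removal of day 1 replicate 1. RA handling genes called lower numbered 1 on removal of day 2 replicate 1 and 1 on removal of day 1 replicate 1. Cyp26b1 (0.186), Aldh1a1 (0.0678), Aldh1a2 (0.226) and Crabp2 (0.0999) lost the call on removal of day 2 replicate 1, and Crabp2 (0.251) lost it on removal of day 2 replicate 2. Cyp26b1 (0.109), Aldh1a1 (0.0512), Aldh1a2 (0.111) and Crabp2 (0.132) lost the call on removal of day 1 replicate 1, and Cyp26b1 (0.0547) and Crabp2 (0.0749) lost it on removal of day 1 replicate 2.

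The retinoid receptor and early target list had 3 higher, 4 lower and 7 not called of 14 tested. Stra8, a meiosis gene that RA induces, had 96.4 and 239 CPM at day 2, against 1433 and 1315 at day 1 (log2 -3.03 ± 0.49, adjusted p = 0.00338), so that it had lost most of its day 1 level in both libraries but kept more of it in replicate 2. The receptor gene Rarg had 13.3 and 15.7 CPM at day 2, against 46.6 and 66.3 at day 1 (log2 -1.96 ± 0.23, adjusted p = 0.000768). Rxra, a partner of all RA receptors, had 87.9 and 99.9 CPM at day 2, against 25.8 and 43.2 at day 1 (log2 1.44 ± 0.30, adjusted p = 0.0116). Rara had 37.1 and 43.8 CPM at day 2, against 8.02 and 22.1 at day 1 and missed the threshold (adjusted p = 0.0508). Tgm2, encoding tissue transglutaminase, had 48.5 and 46.9 CPM at day 2, against 8.56 and 13.3 at day 1 (log2 2.13 ± 0.36, adjusted p = 0.0043). Rarb, the RA receptor that RA itself induces, was not called, with 91.4 and 131.6 CPM at day 2, against 84.5 and 80.2 at day 1 (log2 0.44 ± 0.29, adjusted p = 0.298), while Cyp26a1, which responds to RA through the same kind of element, fell as given above. Retinoid receptor and target genes called higher numbered 1 on removal of day 2 replicate 2, 1 on removal of day 1 replicate 1 and 5 on removal of day 1 replicate 2. Retinoid receptor and target genes called lower numbered 2 on removal of day 2 replicate 1 and 2 on removal of day 2 replicate 2. Rxra (0.0503) lost the call on removal of day 2 replicate 1, and Rxra (0.0625) lost it on removal of day 2 replicate 2. Rxra (0.0511) lost the call on removal of day 1 replicate 1.

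Both promoters are shown to let that contrast be read beside the letters. A direct repeat spaced by 5 bases, the DR5 kind of retinoic acid response element, was searched on both strands in the 250 bases before each start and is printed in capitals (RefSeq, GRCm38.p6, 5′ to 3′ along the gene). The windows are chr19:37697558-37697807, plus strand for Cyp26a1 and chr14:16575477-16575726, minus strand for Rarb.
Cyp26a1: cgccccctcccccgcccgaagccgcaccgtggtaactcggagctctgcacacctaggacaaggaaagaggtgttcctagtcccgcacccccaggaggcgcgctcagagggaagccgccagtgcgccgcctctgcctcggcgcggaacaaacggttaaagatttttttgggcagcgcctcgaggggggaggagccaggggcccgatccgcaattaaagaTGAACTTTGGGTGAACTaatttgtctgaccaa
Rarb: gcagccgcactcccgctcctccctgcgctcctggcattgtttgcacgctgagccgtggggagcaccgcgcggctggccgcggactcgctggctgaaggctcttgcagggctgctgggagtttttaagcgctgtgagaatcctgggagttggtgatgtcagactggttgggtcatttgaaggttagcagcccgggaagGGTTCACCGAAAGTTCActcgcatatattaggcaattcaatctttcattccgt
Each holds 1 match, on the minus strand of the gene in Cyp26a1 and on its plus strand in Rarb. The element is rare, with 29 of 32851 windows (0.0883%) holding it, and these are the only windows with it among the 11 and 11 genes of these lists that had one. The Gli letters GACCACCCA were searched likewise and were found in 0 of the 8 windows of that hedgehog list of receptors, Gli factors and targets and in 0.225% of all windows, which says only that these letters are not in those 250 bases.

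Hox genes of paralog groups 1 to 4, which pattern the hindbrain, had 3 higher, 1 lower and 7 not called of 11 tested. Hoxb1 (GRCm38 chromosome 11, 96365752 to 96368256), an early direct target of RA, fell, with 7.55 and 16.9 CPM at day 2, against 50.5 and 52.6 at day 1 (log2 -2.08 ± 0.46, adjusted p = 0.014). Hoxd3 had 27.5 and 28.5 CPM at day 2, against 2.45 and 2.12 at day 1 (log2 3.62 ± 0.26, adjusted p = 9.44e-05). Hoxa2 had 26.3 and 25.4 CPM at day 2, against 11.8 and 8.3 at day 1 (log2 1.37 ± 0.24, adjusted p = 0.00519). Hoxb3 had 4.69 and 7.63 CPM at day 2, against 1.65 and 1.84 at day 1 (log2 1.81 ± 0.42, adjusted p = 0.0175). Hoxb2, at 22.1 and 31.6 CPM at day 2, against 27.9 and 31 at day 1, and Hoxb4, at 15 and 20.9 CPM at day 2, against 11.5 and 15.6 at day 1, overlapped between days and were not called. No source used here gives the counting strand, so reads of neighbouring and antisense Hox transcripts cannot be told apart. Groups 5 to 13 had 1 higher, 2 lower and 14 not called of 17 tested, a share called of 17.6% beside 19.6% of all genes. Hoxa5 had 12.3 and 23 CPM at day 2, against 43.7 and 39.4 at day 1 (log2 -1.23 ± 0.36, adjusted p = 0.0404). Hoxa7 had 2.9 and 3.38 CPM at day 2, against 5.83 and 7.09 at day 1 (log2 -1.04 ± 0.31, adjusted p = 0.0452). Hoxc9 rose at the edge of detection, with 14 and 23 counts at day 2, against 2 and 5 at day 1 (adjusted p = 0.0381). Hoxb5, at 2.53 and 9.56 CPM at day 2, against 9.14 and 9.74 at day 1, was not called. Hoxb1 (0.116), Hoxa5 (0.264), Hoxa7 (0.27) and Hoxc9 (0.121) lost the call on removal of day 2 replicate 1, and Hoxb3 (0.136), Hoxa7 (0.18) and Hoxc9 (0.247) lost it on removal of day 2 replicate 2. Hoxb3 (0.0741), Hoxa5 (0.122), Hoxa7 (0.0902) and Hoxc9 (0.207) lost the call on removal of day 1 replicate 1, and Hoxa7 (0.123) and Hoxc9 (0.0594) lost it on removal of day 1 replicate 2. Hoxc9 (0.0506) lost the call with a GC offset.

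The day 2 libraries differed from each other, in a direction that varied with the gene list. Of 15288 genes tested with at least 20 counts over the 2 day 2 libraries, 7718 were higher in replicate 1 and 7570 in replicate 2. Of 19 floor plate genes, 17 were higher in replicate 1, with a median log2 ratio of replicate 1 over replicate 2 of 0.43. Hox genes went the other way, with 10 of 11 in groups 1 to 4 and 12 of 14 in groups 5 to 13 lower in replicate 1, and medians of -0.52 and -0.82. So did 12 of 13 retinoid receptor and target genes and 19 of 22 meiosis and germ cell genes. Hedgehog receptors, Gli factors and targets were near balance, with 5 of 12 higher in replicate 1. Lists without a part in patterning leaned as well, with 21 of 25 mitosis, 24 of 32 extraembryonic endoderm, 22 of 30 adhesion and 12 of 15 trophoblast and surface ectoderm genes higher in replicate 1, and 11 of 13 2-cell-like genes lower. In the floor plate list, where the median change from day 1 was upward, and in the germ cell list, where it was downward, replicate 1 thus stood further from day 1. This did not hold for every list. The median log2 fold change was upward for Hox groups 1 to 4 (0.40) and downward for mitosis genes (-0.17), against their leans given above. The part of GC content in these counts was not tested. This is a description of 1 pair of libraries, with no test.

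**Figure D3:**
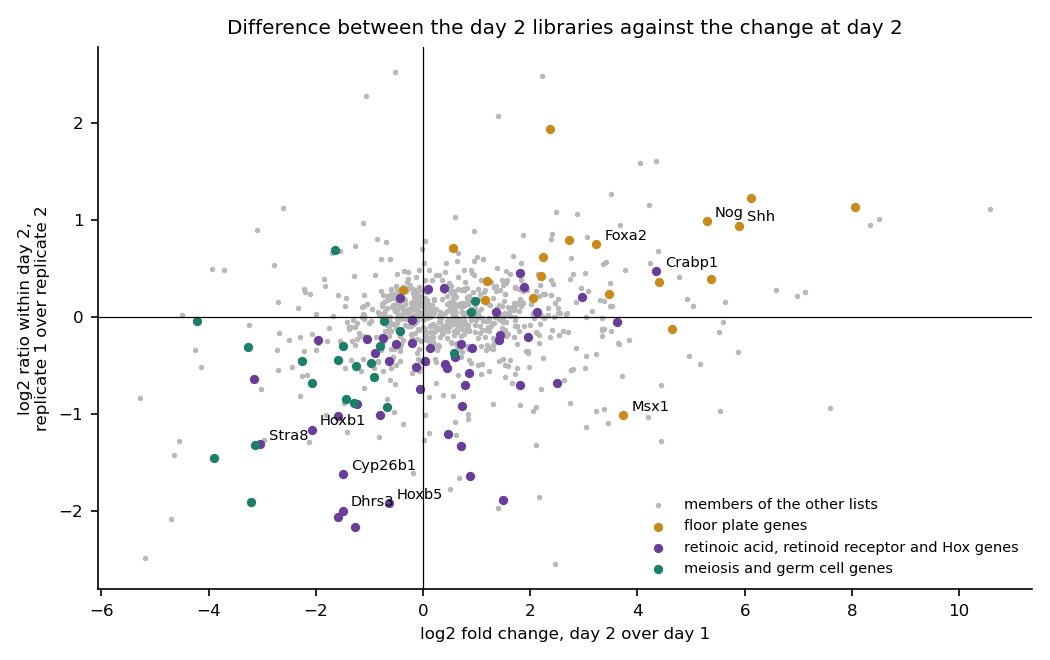
Each point is a list member tested with at least 20 counts over the day 2 libraries, with its log2 fold change of day 2 over day 1 (horizontal) against its log2 ratio of replicate 1 over replicate 2 within day 2 (vertical). Floor plate genes (orange) lie mostly above 0 and RA, Hox and germ cell genes (purple and green) mostly below it.

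Hox cofactors and hindbrain segmentation factors had 10 higher, 2 lower and 10 not called of 22 tested. Meis1, a homeobox cofactor of Hox proteins, had 124 and 134 CPM at day 2, against 48.2 and 44.9 at day 1 (log2 1.47 ± 0.17, adjusted p = 0.000754). Sp5, a zinc finger factor that responds to Wnt, had 6.66 and 7.85 CPM at day 2, against 0.432 and 0.562 at day 1 (log2 3.85 ± 0.48, adjusted p = 0.00102). Iroquois genes, which divide the neural plate, moved together, with log2 fold changes of 2.68 ± 0.61 for Irx1, 0.98 ± 0.23 for Irx2, 2.101 ± 0.45 for Irx3 and 2.53 ± 0.41 for Irx5. Gbx2, which sets the front edge of the hindbrain, fell (-1.47 ± 0.30, adjusted p = 0.0103), as did the caudal factor gene Cdx1 at low levels (-2.51 ± 0.54, adjusted p = 0.0129). Meis2, high at day 1 already, was not called, and Egr2, the marker of rhombomeres 3 and 5, stayed below 1 CPM in all 4 libraries. Forebrain and midbrain factors had 0 higher (0 at an unadjusted p under 0.05, 0 by DESeq2), 2 lower and 8 not called of 10 tested. That is 20%, beside 19.6% of all genes tested, and both calls were at low levels. Pax8 had 0.186 and 0.145 CPM at day 2, against 1.04 and 0.968 at day 1, and Emx2 had 0.521 and 0.618 CPM at day 2, against 2.09 and 1.9 at day 1. Hox cofactor and hindbrain genes called higher numbered 6 on removal of day 2 replicate 2 and 6 on removal of day 1 replicate 1. Irx1 (0.0801), Irx2 (0.149), Gbx2 (0.0924), Cdx1 (0.116), Pax8 (0.118) and Emx2 (0.206) lost the call on removal of day 2 replicate 1, and Irx1 (0.0592), Irx2 (0.107), Irx3 (0.0982), Cdx1 (0.0812), Pax8 (0.138) and Emx2 (0.15) lost it on removal of day 2 replicate 2. Irx1 (0.0587), Irx2 (0.059), Irx3 (0.0545), Pax8 (0.0627) and Emx2 (0.119) lost the call on removal of day 1 replicate 1, and Irx2 (0.0578), Cdx1 (0.0529) and Emx2 (0.0537) lost it on removal of day 1 replicate 2. Irx2 (0.47), Irx3 (0.086) and Irx5 (0.0715) lost the call with a GC offset.

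Dorsal and intermediate progenitor factors had 4 higher, 2 lower and 5 not called of 11 tested. The signal gene Wnt1, made by the dorsal midline and the midbrain border, had 6.43 and 5.78 CPM at day 2, against 0.216 and 0.0312 at day 1 (log2 5.63 ± 0.84, adjusted p = 0.00228). Zic1, a zinc finger factor of the dorsal neural tube, had 10.2 and 11.2 CPM at day 2, against 1.04 and 1.06 at day 1 (log2 3.34 ± 0.46, adjusted p = 0.00152). Pax3 had 3.12 and 5.24 CPM at day 2, against 1.04 and 0.78 at day 1 (log2 2.20 ± 0.56, adjusted p = 0.0258). Day 2 libraries were above day 1 libraries in these 3 genes, though none reached 12 CPM. Pax6, a factor of intermediate and neural progenitors, had 62.7 and 129.6 CPM at day 2, against 54.1 and 53.4 at day 1 and was not called (adjusted p = 0.347). Atoh1, the proneural factor of the rhombic lip, had 0 and 0 counts at day 2, against 10 and 14 at day 1, at least 3.61-fold lower against the floor (adjusted p = 0.0196). Dorsal and intermediate factors called higher numbered 2 on removal of day 2 replicate 1 and 2 on removal of day 1 replicate 1. Pax3 (0.0588) and Atoh1 (0.141) lost the call on removal of day 2 replicate 1, and Pax3 (0.159) and Atoh1 (0.13) lost it on removal of day 2 replicate 2. Pax3 (0.0712) and Atoh1 (0.0561) lost the call on removal of day 1 replicate 1, and Pax3 (0.0661) lost it on removal of day 1 replicate 2.

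Pluripotency factors fell at day 2. Naive factors had 0 higher (0 at an unadjusted p under 0.05, 0 by DESeq2), 11 lower and 3 not called of 14 tested, with a median log2 fold change of -2.77, and general pluripotency genes had 1 higher, 8 lower and 7 not called of 16 tested. Pou5f1 (GRCm38 chromosome 17, 35506018 to 35510772), the central pluripotency factor, had 3.76 and 4.76 CPM at day 2, against 55.1 and 109 at day 1 (log2 -4.26 ± 0.40, adjusted p = 0.000256). L1td1, encoding an RNA-binding protein of stem cells, had 10.3 and 10.2 CPM at day 2, against 261 and 202 at day 1 (log2 -4.49 ± 0.20, adjusted p = 1.81e-05). The groups were far apart for both genes, and the day 1 libraries of Pou5f1 differed about 2-fold. Nanog had 1.26 and 0.873 CPM at day 2, against 8.06 and 6.62 at day 1 (log2 -2.78 ± 0.32, adjusted p = 0.000741). Esrrb had 2.19 and 1.96 CPM at day 2, against 11 and 16.1 at day 1 (log2 -2.70 ± 0.30, adjusted p = 0.000584). Zfp42 had 6.28 and 7.93 CPM at day 2, against 26.5 and 29.96 at day 1 (log2 -1.99 ± 0.27, adjusted p = 0.00141). Dppa5a, Dppa2 and Dnmt3l had log2 fold changes of -3.25 ± 0.26, -4.14 ± 0.41 and -2.68 ± 0.24. Klf4, at 5.43 and 5.82 CPM at day 2, against 4.96 and 6.24 at day 1, was not called. Several genes that neural progenitors share were not called: Sox2 had 171 and 141 CPM at day 2, against 118 and 102 at day 1 (adjusted p = 0.107). Sall4 had 144 and 166 CPM at day 2, against 137 and 154 at day 1 (adjusted p = 0.692). Lin28a had 1054 and 1042 CPM at day 2, against 1172 and 1026 at day 1 (adjusted p = 0.829). Lin28b, a relative of Lin28a that blocks let-7 processing, rose (0.74 ± 0.18, adjusted p = 0.0195). Lin28b (0.14) lost the call on removal of day 2 replicate 1, and Lin28b (0.0783) lost it on removal of day 2 replicate 2. Lin28b (0.0651) lost the call on removal of day 1 replicate 2.

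Genes of the formative and primed epiblast, the states that follow naive pluripotency, had 2 higher, 9 lower and 2 not called of 13 tested. Etv4, a factor downstream of FGF and ERK signaling, had 1.38 and 0.982 CPM at day 2, against 13.7 and 17.4 at day 1 (log2 -3.72 ± 0.30, adjusted p = 0.000156). Its relative Etv5 had a log2 fold change of -1.82 ± 0.17. Otx2, which the forebrain and the primed epiblast use, had 0.149 and 0.182 CPM at day 2, against 3.71 and 4.12 at day 1 (log2 -4.53 ± 0.55, adjusted p = 0.00084). The methyltransferase gene Dnmt3b had 86 and 89.8 CPM at day 2, against 171 and 181 at day 1 (log2 -1.003 ± 0.17, adjusted p = 0.0047). Sox3, which neural progenitors share, rose, with 19.5 and 23.5 CPM at day 2, against 2.77 and 6.84 at day 1 (log2 2.16 ± 0.56, adjusted p = 0.028), as did Sall2 (1.33 ± 0.24, adjusted p = 0.00561). Fgf5, the classical primed marker, was near the floor at 0.483 and 0.145 CPM at day 2, against 0.396 and 0.375 at day 1. Formative and primed genes called lower numbered 4 on removal of day 2 replicate 1 and 5 on removal of day 2 replicate 2. Dnmt3b (0.0636) and Sox3 (0.089) lost the call on removal of day 2 replicate 1, and Sox3 (0.109) lost it on removal of day 2 replicate 2. Sox3 (0.113) lost the call on removal of day 1 replicate 1.

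Meiosis and germ cell genes, many of them silent in somatic cells, had 0 higher (1 at an unadjusted p under 0.05, 0 by DESeq2), 12 lower and 11 not called of 23 tested, with a median log2 fold change of -1.44. Sycp3, of the synaptonemal complex, had 0.706 and 0.727 CPM at day 2, against 16 and 11 at day 1 (log2 -4.22 ± 0.54, adjusted p = 0.00108). Dazl, a germ cell RNA-binding protein gene, had 6.54 and 16.3 CPM at day 2, against 122 and 79 at day 1 (log2 -3.14 ± 0.73, adjusted p = 0.0179). The recombinase gene Dmc1 had 1.38 and 1.71 CPM at day 2, against 16.2 and 13.7 at day 1 (log2 -3.27 ± 0.40, adjusted p = 0.000873). Hormad1 and Asz1 had log2 fold changes of -3.91 ± 0.56 and -3.22 ± 0.59. Neither Ddx4 nor Rec8 was called. The 12 largest falls among genes that had at least 5 CPM on the day with the higher mean held further genes with roles in germ cells. Morc1, needed to silence transposons in male germ cells, had 1.04 and 1.85 CPM at day 2, against 65.3 and 47.2 at day 1 (log2 -5.27 ± 0.48, adjusted p = 0.00023). Gtsf1, of the piRNA pathway, had 0.112 and 0.254 CPM at day 2, against 6.04 and 5.93 at day 1 (log2 -4.99 ± 0.60, adjusted p = 0.000809). The others were varied: the collagen gene Col6a5 had 0.186 and 0.0727 CPM at day 2, against 19.5 and 19 at day 1 (log2 -7.18 ± 0.47, adjusted p = 7.48e-05). The water channel gene Aqp3 had 0.149 and 0.836 CPM at day 2, against 14.8 and 21.4 at day 1 (log2 -5.18 ± 0.57, adjusted p = 0.000531). The adhesion gene Pecam1 had 0.335 and 1.42 CPM at day 2, against 22.1 and 24.1 at day 1 (log2 -4.71 ± 0.51, adjusted p = 0.000504). The cytochrome gene Cyp2b23 was at 0 and 1 counts at day 2, against 198 and 183 at day 1 (adjusted p = 0.000156). Arhgef38, Accsl, Clca4, Slc28a1, Calcoco2 and the milk protein gene Csn3 had log2 fold changes of -5.70 ± 0.61, -5.14 ± 0.56, -4.96 ± 0.41, -4.65 ± 0.53, -4.64 ± 0.48 and -4.55 ± 0.54. Meiosis and germ cell genes called lower numbered 5 on removal of day 2 replicate 1 and 7 on removal of day 2 replicate 2. Dazl (0.134) lost the call on removal of day 2 replicate 1.

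Genes of the 2-cell-like state, a rare state in stem cell cultures, had 0 higher (0 at an unadjusted p under 0.05, 0 by DESeq2), 5 lower and 9 not called of 14 tested. Their called members Gm8300, Usp17lb, Gm5662, Zfp352 and Usp17le had log2 fold changes of -1.96 ± 0.42, -1.38 ± 0.29, -2.29 ± 0.55, -1.45 ± 0.40 and -1.42 ± 0.42, and Zscan4c, at 2.64 and 3.64 CPM at day 2, against 6.51 and 5.9 at day 1, was not called. The Usp17l, Zscan4 and several predicted genes have near-identical copies, so how reads were shared among them is uncertain. 2-cell-like genes called lower numbered 0 on removal of day 2 replicate 1, 1 on removal of day 2 replicate 2 and 2 on removal of day 1 replicate 1. Gm8300 (0.11), Usp17lb (0.122), Gm5662 (0.173), Zfp352 (0.25) and Usp17le (0.264) lost the call on removal of day 2 replicate 1, and Gm8300 (0.0656), Usp17lb (0.086), Gm5662 (0.0725) and Zfp352 (0.12) lost it on removal of day 2 replicate 2. Gm5662 (0.069), Zfp352 (0.169) and Usp17le (0.127) lost the call on removal of day 1 replicate 1.

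Id genes rose by large factors. BMP and Id genes had 10 higher, 1 lower and 11 not called of 22 tested. Id proteins block bHLH factors and are read as targets of BMP signaling. Id1 had 24.1 and 31.8 CPM at day 2, against 0.576 and 1.19 at day 1 (log2 4.97 ± 0.39, adjusted p = 0.000144). Id2 had 127.7 and 139.6 CPM at day 2, against 13.3 and 13.2 at day 1 (log2 3.34 ± 0.27, adjusted p = 0.000156). Id3 had 88.4 and 114 CPM at day 2, against 0.791 and 2.59 at day 1 (log2 5.88 ± 0.47, adjusted p = 0.000156). Both day 2 libraries were at least 9 times both day 1 libraries for these 3 genes, and Id1 had been at 16.2 ± 0.909 CPM at day 0 (mean ± SD, n = 2). The ligand gene Bmp4 had 15.1 and 11.6 CPM at day 2, against 1.58 and 3.5 at day 1 (log2 2.39 ± 0.35, adjusted p = 0.00224). Bmp7 and Bmp5 changed by 1.18 ± 0.34 and 3.499 ± 0.67. The receptors Bmpr1a, Bmpr2 and Acvr1 were not called. BMP and Id genes called higher numbered 5 on removal of day 2 replicate 1. Bmp7 (0.144) and Bmp5 (0.0837) lost the call on removal of day 2 replicate 1, and Bmp7 (0.166) lost it on removal of day 2 replicate 2. Bmp7 (0.157) lost the call on removal of day 1 replicate 1.

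FGF ligands, receptors and ERK feedback genes had 4 higher, 9 lower and 12 not called of 25 tested. Several feedback inhibitor genes fell: Spry4 had 1.49 and 1.05 CPM at day 2, against 21.8 and 17.1 at day 1 (log2 -3.93 ± 0.24, adjusted p = 7.41e-05). Dusp6 had 39.5 and 44.1 CPM at day 2, against 98.2 and 94.1 at day 1 (log2 -1.20 ± 0.20, adjusted p = 0.00407). Il17rd and Spry2 had log2 fold changes of -1.44 ± 0.17 and -1.27 ± 0.17. Fgf4, the stem cell ligand, which stands in the naive list, had 0.297 and 0.0364 CPM at day 2, against 4.32 and 3.87 at day 1 (log2 -4.59 ± 0.56, adjusted p = 0.000876). Ligands and receptors of the neural plate rose instead. Fgf15 (GRCm38 chromosome 7, 144896531 to 144900953) had 47.9 and 41.3 CPM at day 2, against 0.216 and 0.468 at day 1 (log2 6.98 ± 0.68, adjusted p = 0.000296). Fgf3, a ligand of the hindbrain, had 9.04 and 9.05 CPM at day 2, against 0.899 and 1.28 at day 1 (log2 3.04 ± 0.38, adjusted p = 0.00102). The receptor gene Fgfr3 had 59.8 and 48.5 CPM at day 2, against 5.61 and 8.46 at day 1 (log2 2.94 ± 0.38, adjusted p = 0.00118). Fgfr2, at 143 and 159.9 CPM at day 2, against 152 and 142 at day 1, and Fgfr1 were not called, and Fgf8 was near the floor. FGF and ERK genes called lower numbered 4 on removal of day 2 replicate 1. Dusp6 (0.0588) lost the call on removal of day 2 replicate 1.

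Wnt ligands and feedback genes had 19 higher, 1 lower and 18 not called of 38 tested, with a median log2 fold change of 0.92. Axin2, a feedback target of beta-catenin, had 37.4 and 41.4 CPM at day 2, against 8.31 and 14.4 at day 1 (log2 1.79 ± 0.36, adjusted p = 0.00888). Nkd1 and Lgr5, targets of the same kind, had log2 fold changes of 1.86 ± 0.27 and 2.76 ± 0.59. Sfrp1, a secreted inhibitor, had 164 and 129.6 CPM at day 2, against 29.4 and 25.5 at day 1 (log2 2.42 ± 0.21, adjusted p = 0.000171). The inhibitor genes Dkk3, Sfrp2 and Dkk1 changed by 2.33 ± 0.24, 2.62 ± 0.46 and 1.61 ± 0.36. Among receptors, Fzd3 had 145 and 112 CPM at day 2, against 50.04 and 39.4 at day 1 (log2 1.53 ± 0.19, adjusted p = 0.00103). The ligand genes Wnt7a, Wnt5a and Wnt5b rose (2.76 ± 0.37, 1.45 ± 0.27 and 2.13 ± 0.32 on the log2 scale) and Wnt7b fell (-1.55 ± 0.33, adjusted p = 0.0113). Lef1, in the primed list, fell (-2.12 ± 0.34, adjusted p = 0.00312). Wnt genes called higher numbered 10 on removal of day 2 replicate 1 and 12 on removal of day 2 replicate 2. Dkk1 (0.122), Wnt5a (0.0566) and Wnt7b (0.119) lost the call on removal of day 2 replicate 1, and Lgr5 (0.0685) and Wnt7b (0.0658) lost it on removal of day 2 replicate 2. Dkk1 (0.0573) lost the call on removal of day 1 replicate 1, and Wnt5b (0.0847) lost it with a GC offset.

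Nodal, TGF-beta and activin genes had 6 higher, 4 lower and 13 not called of 23 tested. Nodal itself, a ligand of the epiblast, had 0.632 and 0.8 CPM at day 2, against 2.27 and 7.18 at day 1 (log2 -2.72 ± 0.59, adjusted p = 0.0134). Its co-receptor gene Tdgf1 had a log2 fold change of -2.62 ± 0.40, adjusted p = 0.00257. Their feedback inhibitors Lefty1 and Lefty2 were below 1 CPM in all 4 libraries and were not called. Fst, encoding the activin antagonist follistatin, had 51.1 and 34.8 CPM at day 2, against 3.89 and 4.46 at day 1 (log2 3.36 ± 0.27, adjusted p = 0.000156). Smad3 had 229 and 185 CPM at day 2, against 81.1 and 83.4 at day 1 (log2 1.33 ± 0.17, adjusted p = 0.00109). The ligand genes Tgfb2 and Tgfb3 changed by 2.77 ± 0.44 and 2.51 ± 0.36. Skil, a corepressor of Smad proteins, fell (-1.41 ± 0.17, adjusted p = 0.000801). Nodal and TGF-beta genes called lower numbered 2 on removal of day 2 replicate 1 and 2 on removal of day 2 replicate 2. Nodal (0.109) lost the call on removal of day 2 replicate 1, and Nodal (0.0656) lost it on removal of day 2 replicate 2.

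Axon guidance genes, from a list of 40 that leaves out the floor plate cues above, had 24 higher, 2 lower and 14 not called of 40 tested, with a median log2 fold change of 1.39. Nrp2, a semaphorin receptor, had 66.6 and 48.6 CPM at day 2, against 7.52 and 6.71 at day 1 (log2 3.02 ± 0.21, adjusted p = 8.61e-05). Robo2, a Slit receptor, had 59.3 and 53 CPM at day 2, against 8.45 and 7.05 at day 1 (log2 2.86 ± 0.27, adjusted p = 0.000266), whereas Robo1 had 39.3 and 39 CPM at day 2, against 39.9 and 34.9 at day 1 and was not called (adjusted p = 0.84). The ephrin gene Efnb3 had 48.7 and 41.1 CPM at day 2, against 8.6 and 9.93 at day 1 (log2 2.28 ± 0.22, adjusted p = 0.000266). The Eph receptor gene Epha4 had 105 and 83.6 CPM at day 2, against 36.3 and 31.1 at day 1 (log2 1.49 ± 0.24, adjusted p = 0.00349). Of the semaphorins called higher, 3 had log2 fold changes of 3.05 ± 0.31 for Sema3d, 1.72 ± 0.19 for Sema3c and 2.05 ± 0.33 for Sema3a. The 2 falls were Epha2 and Epha1 (-1.33 ± 0.34 and -1.59 ± 0.41), both higher at day 0 than on any later day of the series by mean level. The netrin receptor gene Dcc had 0.706 and 1.02 CPM at day 2, against 0.791 and 0.999 at day 1 and was not called (adjusted p = 0.945). Axon guidance genes called higher numbered 13 on removal of day 2 replicate 1 and 14 on removal of day 2 replicate 2. Epha2 (0.169) and Epha1 (0.128) lost the call on removal of day 2 replicate 1, and Epha2 (0.0893) and Epha1 (0.152) lost it on removal of day 2 replicate 2. Epha2 (0.0821) and Epha1 (0.056) lost the call on removal of day 1 replicate 2.

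Adhesion genes moved both ways. Epithelial adhesion and cadherin genes had 7 higher, 6 lower and 18 not called of 31 tested. Cdh2, the neural cadherin, had 264 and 259 CPM at day 2, against 56 and 48.3 at day 1 (log2 2.32 ± 0.15, adjusted p = 7.56e-05). Cdh6 and Cdh11 had log2 fold changes of 2.88 ± 0.39 and 2.06 ± 0.43. Cdh1, the epithelial cadherin, had 322 and 232 CPM at day 2, against 349.9 and 358 at day 1 and was not called (adjusted p = 0.213), although its 4 libraries did not overlap. Epcam had 40.6 and 30.2 CPM at day 2, against 81.1 and 92 at day 1 (log2 -1.29 ± 0.22, adjusted p = 0.0048). Esrp1, a splicing factor of epithelia, had 20.5 and 12.7 CPM at day 2, against 50.2 and 47 at day 1 (log2 -1.55 ± 0.28, adjusted p = 0.0055). Dsg2 and Ocln, of desmosomes and tight junctions, fell by 1.095 ± 0.17 and 1.45 ± 0.34 on the log2 scale. The keratin genes Krt18 and Krt19 rose (1.38 ± 0.28 and 2.52 ± 0.53), of which Krt18 has many processed copies that could share its reads. Adhesion genes called higher numbered 3 on removal of day 2 replicate 1. Adhesion genes called lower numbered 3 on removal of day 2 replicate 1 and 2 on removal of day 2 replicate 2. Cdh11 (0.0521), Ocln (0.115), Krt18 (0.0888) and Krt19 (0.0596) lost the call on removal of day 2 replicate 1, and Epcam (0.0512) and Ocln (0.119) lost it on removal of day 2 replicate 2. Ocln (0.0539) and Krt18 (0.0538) lost the call on removal of day 1 replicate 1.

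Extraembryonic endoderm genes had 14 higher, 0 lower (0 at an unadjusted p under 0.05, 0 by DESeq2) and 19 not called of 33 tested. The called members with the most counts encode basement membrane proteins, which other cells make as well. Col4a1 had 1047 and 1015 CPM at day 2, against 125.5 and 227 at day 1 (log2 2.55 ± 0.44, adjusted p = 0.00465). Lama1 had 1076 and 942 CPM at day 2, against 254 and 319.6 at day 1 (log2 1.81 ± 0.29, adjusted p = 0.00318). Lamb1 and Sparc changed by 1.07 ± 0.25 and 0.94 ± 0.22. The defining factor genes Gata4 and Gata6 rose less than 2-fold: Gata4 had 27.5 and 24.2 CPM at day 2, against 13.9 and 13.2 at day 1 (log2 0.93 ± 0.26, adjusted p = 0.0364). Gata6 had 21.5 and 20.9 CPM at day 2, against 12 and 13 at day 1 (log2 0.76 ± 0.21, adjusted p = 0.0344). Sox7, Hnf4a and Afp were not called. Lrp2, an uptake receptor, had 453 and 391 CPM at day 2, against 497 and 457 at day 1 and was not called (adjusted p = 0.45). The part of extraembryonic cells in the matrix genes was not tested. Extraembryonic endoderm genes called higher numbered 4 on removal of day 2 replicate 1, 5 on removal of day 2 replicate 2 and 5 on removal of day 1 replicate 1. Lamb1 (0.123), Sparc (0.146), Gata4 (0.209) and Gata6 (0.202) lost the call on removal of day 2 replicate 1, and Lamb1 (0.05), Sparc (0.0545), Gata4 (0.115) and Gata6 (0.172) lost it on removal of day 2 replicate 2. Lamb1 (0.0751), Sparc (0.0756), Gata4 (0.103) and Gata6 (0.143) lost the call on removal of day 1 replicate 1, and Gata4 (0.0712) and Gata6 (0.0534) lost it on removal of day 1 replicate 2. Gata4 (0.544) and Gata6 (0.336) lost the call with a GC offset.

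Fibroblast, muscle and endothelial genes had 7 higher, 2 lower and 10 not called of 19 tested. Genes of the contractile cytoskeleton rose, with Acta2 at 102 and 72.6 CPM at day 2, against 5.25 and 7.49 at day 1 (log2 3.77 ± 0.26, adjusted p = 8.61e-05) and Tagln at 233 and 171 CPM at day 2, against 34.5 and 57.4 at day 1 (log2 2.14 ± 0.30, adjusted p = 0.00178). Dcn, encoding the matrix proteoglycan decorin, had 10.6 and 3.53 CPM at day 2, against 0.54 and 0.312 at day 1 (log2 4.05 ± 0.78, adjusted p = 0.00778) and was 3 times as high in day 2 replicate 1 as in replicate 2. Col1a1 and Col3a1 were not called. Mesoderm and definitive endoderm genes had 3 higher, 2 lower and 8 not called of 13 tested, with Eomes at 1.64 and 1.53 CPM at day 2, against 8.49 and 7.52 at day 1 (log2 -2.34 ± 0.30, adjusted p = 0.0011) and Sox17 at 8.89 and 8.62 CPM at day 2, against 1.4 and 2.81 at day 1 (log2 2.05 ± 0.39, adjusted p = 0.00773), and T not called. Trophoblast and surface ectoderm genes had 2 higher, 1 lower and 12 not called of 15 tested, with Eya1 (1.68 ± 0.28) and Trp63 (2.41 ± 0.54) higher and Gcm1 (-2.22 ± 0.50) lower. The share called, 20%, was near the 19.6% of all genes tested. Neural crest genes had 0 higher (1 at an unadjusted p under 0.05, 0 by DESeq2), 1 lower and 9 not called of 10 tested, the call being Erbb3 (-1.11 ± 0.24, adjusted p = 0.0135), and Sox10 did not pass the filter. Fibroblast, muscle and endothelial genes called higher numbered 4 on removal of day 2 replicate 1. Sox17 (0.0507), Trp63 (0.13), Gcm1 (0.0986) and Erbb3 (0.116) lost the call on removal of day 2 replicate 1, and Gcm1 (0.115) and Erbb3 (0.105) lost it on removal of day 2 replicate 2. Trp63 (0.08) lost the call on removal of day 1 replicate 1.

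DNA methylation and demethylation enzymes had 1 higher, 3 lower and 9 not called of 13 tested, and the Tet dioxygenases, which oxidize methylcytosine, moved apart: Tet1 had 87.1 and 87.3 CPM at day 2, against 217 and 168 at day 1 (log2 -1.14 ± 0.24, adjusted p = 0.0108). Tet2 had 26 and 29.3 CPM at day 2, against 125.6 and 108 at day 1 (log2 -2.08 ± 0.28, adjusted p = 0.00156). Tet3 had 123 and 126.01 CPM at day 2, against 44.4 and 64.1 at day 1 (log2 1.20 ± 0.22, adjusted p = 0.00595). Polycomb and BAF subunits had 11 higher, 4 lower and 20 not called of 35 tested. Jarid2, an accessory subunit of Polycomb repressive complex 2, had 130.2 and 139 CPM at day 2, against 370.4 and 333 at day 1 (log2 -1.38 ± 0.16, adjusted p = 0.000753). Its partners Suz12 and Mtf2 had log2 fold changes of -1.11 ± 0.22 and -1.12 ± 0.24, while the catalytic subunit gene Ezh2 was not called (0.11 ± 0.23, adjusted p = 0.772). Among Polycomb readers, Cbx2 had 137 and 141 CPM at day 2, against 59.9 and 67.9 at day 1 (log2 1.12 ± 0.17, adjusted p = 0.00255). Cbx8 changed by 1.75 ± 0.37, and Cbx7 was not called. Of the BAF remodeler, the neural subunit genes Dpf1 and Dpf3 rose (1.58 ± 0.37 and 1.57 ± 0.41) and Actl6a did not pass. Polycomb and BAF genes called higher numbered 2 on removal of day 2 replicate 1, 1 on removal of day 2 replicate 2, 2 on removal of day 1 replicate 1 and 5 with a GC offset. Polycomb and BAF genes called lower numbered 1 on removal of day 2 replicate 1 and 1 on removal of day 2 replicate 2. Tet1 (0.0826), Suz12 (0.0738), Mtf2 (0.0853), Cbx8 (0.0678), Dpf1 (0.108) and Dpf3 (0.198) lost the call on removal of day 2 replicate 1, and Tet1 (0.0733), Suz12 (0.0628), Mtf2 (0.0837), Cbx8 (0.0668), Dpf1 (0.0739) and Dpf3 (0.0913) lost it on removal of day 2 replicate 2. Tet1 (0.0512), Mtf2 (0.061), Cbx8 (0.0527), Dpf1 (0.068) and Dpf3 (0.0549) lost the call on removal of day 1 replicate 1, and Dpf3 (0.0986) lost it on removal of day 1 replicate 2. Cbx2 (0.197) and Dpf3 (0.0508) lost the call with a GC offset.

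Neural splicing and RNA-binding genes had 6 higher, 0 lower (2 at an unadjusted p under 0.05, 0 by DESeq2) and 17 not called of 23 tested, with Nova2 at 22.9 and 20.9 CPM at day 2, against 7.99 and 8.43 at day 1 (log2 1.42 ± 0.18, adjusted p = 0.00106), Igf2bp2 at 267 and 215 CPM at day 2, against 97.9 and 94 at day 1 (log2 1.33 ± 0.17, adjusted p = 0.00101) and Celf3 at 1.34 and 1.93 CPM at day 2, against 0.036 and 0.343 at day 1 (log2 3.02 ± 0.62, adjusted p = 0.0101). Ptbp2 changed by 0.68 ± 0.16, adjusted p = 0.019 and Ptbp1, which represses neural exons, missed the threshold (0.90 ± 0.28, adjusted p = 0.0553). Imprinted genes, expressed from 1 parental allele, had 11 higher, 0 lower (3 at an unadjusted p under 0.05, 1 by DESeq2) and 12 not called of 23 tested. Plagl1, a zinc finger factor, had 96.4 and 105 CPM at day 2, against 9.39 and 9.89 at day 1 (log2 3.38 ± 0.19, adjusted p = 7.41e-05). Peg3 had 2011 and 1670.2 CPM at day 2, against 551 and 459 at day 1 (log2 1.87 ± 0.19, adjusted p = 0.000394). Magel2 had 29 and 25.8 CPM at day 2, against 2.05 and 3.18 at day 1 (log2 3.38 ± 0.36, adjusted p = 0.00042). No library overlap was seen in these 3 genes. Igf2, a growth factor gene, had 306 and 258 CPM at day 2, against 197 and 193 at day 1 and was not called (adjusted p = 0.0863), nor was H19 or Meg3. Splicing and RNA-binding genes called higher numbered 3 on removal of day 2 replicate 1 and 2 on removal of day 2 replicate 2. Imprinted genes called higher numbered 7 on removal of day 2 replicate 2 and 7 on removal of day 1 replicate 1. Ptbp2 (0.15) lost the call on removal of day 2 replicate 1, and Celf3 (0.0541) and Ptbp2 (0.0838) lost it on removal of day 2 replicate 2. Ptbp2 (0.0687) lost the call on removal of day 1 replicate 2.

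Few proliferation genes were called. DNA replication genes had 1 higher, 0 lower (1 at an unadjusted p under 0.05, 0 by DESeq2) and 27 not called of 28 tested, a smaller share than the 19.6% of all genes, and mitosis genes had 0 higher (1 at an unadjusted p under 0.05, 0 by DESeq2), 1 lower and 24 not called of 25 tested. The call among replication genes was Mcm7 (0.64 ± 0.18, adjusted p = 0.0392). That among mitosis genes was Hmmr (-0.73 ± 0.22, adjusted p = 0.0455), while Pcna, Mcm6 and Cdk1 were not called. G1 cyclins and CDK inhibitors had 6 higher, 2 lower and 12 not called of 20 tested. Ccnd2, encoding cyclin D2, had 825 and 915 CPM at day 2, against 144 and 122 at day 1 (log2 2.71 ± 0.22, adjusted p = 0.000156). Cdk6 had 30.5 and 27.1 CPM at day 2, against 9.07 and 11.3 at day 1 (log2 1.50 ± 0.21, adjusted p = 0.00187). Myc had 38.3 and 49.4 CPM at day 2, against 10.8 and 11.6 at day 1 (log2 1.96 ± 0.26, adjusted p = 0.00142) after 57.5 ± 16.4 CPM at day 0 (mean ± SD, n = 2). Cdkn1c, an imprinted CDK inhibitor gene, had 96.5 and 70.1 CPM at day 2, against 24.6 and 24.1 at day 1 (log2 1.77 ± 0.30, adjusted p = 0.0041). Ccne1 was not called (-0.19 ± 0.20, adjusted p = 0.528). Mcm7 (0.161) and Hmmr (0.162) lost the call on removal of day 2 replicate 1, and Mcm7 (0.191) and Hmmr (0.247) lost it on removal of day 2 replicate 2. Mcm7 (0.21) and Hmmr (0.261) lost the call on removal of day 1 replicate 1, and Mcm7 (0.151) lost it with a GC offset.

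Stress and metabolic lists held calls in both directions or only a few falls. The shares called were 20% for immediate early and stress, 18.2% for cholesterol and 23.1% for amino acid stress genes. These were near the 19.6% of all genes tested, and p53 and apoptosis genes had 36%. Targets of p53 and apoptosis genes had 4 higher, 5 lower and 16 not called of 25 tested, with Pmaip1 (-1.67 ± 0.19, adjusted p = 0.000639) and Trp73 (-3.54 ± 0.69, adjusted p = 0.00826) lower and Bcl2 (1.72 ± 0.31, adjusted p = 0.00562) and Cdkn1a (0.85 ± 0.17, adjusted p = 0.00878) higher. Immediate early and stress genes, which mark rough handling of cells, had 3 higher, 1 lower and 16 not called of 20 tested. Jun had 23.2 and 26.4 CPM at day 2, against 6.3 and 10.6 at day 1 (log2 1.55 ± 0.29, adjusted p = 0.00648). Cyr61 and Fosl2 changed by 1.02 ± 0.22 and 1.05 ± 0.23. Fos had 4.24 and 4.18 CPM at day 2, against 1.26 and 1.59 at day 1, but was not called (log2 1.56 ± 0.81, adjusted p = 0.198). Its day 0 libraries, which enter the estimate of the spread, stood at 1.97 and 16 CPM. Egr1, whose libraries overlapped between the days, was not called either. Amino acid stress and unfolded protein genes had 0 higher (2 at an unadjusted p under 0.05, 0 by DESeq2), 6 lower and 20 not called of 26 tested, among them Cth (-1.35 ± 0.17, adjusted p = 0.000983), Slc7a3 (-1.995 ± 0.26, adjusted p = 0.00124) and Xbp1 (-0.77 ± 0.19, adjusted p = 0.0242). Asns stood at the edge (-0.71 ± 0.22, adjusted p = 0.0505). Cholesterol synthesis genes had 0 higher (1 at an unadjusted p under 0.05, 0 by DESeq2), 4 lower and 18 not called of 22 tested, namely Fdps, Insig1, Fdft1 and Nsdhl (-0.75 ± 0.15, -0.77 ± 0.15, -0.67 ± 0.16 and -0.56 ± 0.17). P53 and apoptosis genes called higher numbered 1 on removal of day 2 replicate 1, 2 on removal of day 2 replicate 2 and 7 on removal of day 1 replicate 2. P53 and apoptosis genes called lower numbered 2 on removal of day 2 replicate 1, 1 on removal of day 2 replicate 2, 2 on removal of day 1 replicate 1 and 8 with a GC offset. Immediate early and stress genes called higher numbered 1 on removal of day 2 replicate 1 and 1 on removal of day 1 replicate 1. Amino acid stress genes called lower numbered 2 on removal of day 2 replicate 1, 3 on removal of day 2 replicate 2 and 11 with a GC offset. Cholesterol genes called lower numbered 0 on removal of day 2 replicate 1, 0 on removal of day 2 replicate 2, 2 on removal of day 1 replicate 1 and 8 with a GC offset. Trp73 (0.0855), Bcl2 (0.0551), Cdkn1a (0.1), Cyr61 (0.111), Fosl2 (0.104), Xbp1 (0.118), Fdps (0.0588), Insig1 (0.0801), Fdft1 (0.102) and Nsdhl (0.141) lost the call on removal of day 2 replicate 1, and Trp73 (0.0502), Fosl2 (0.0908), Xbp1 (0.171), Fdps (0.127), Insig1 (0.11), Fdft1 (0.183) and Nsdhl (0.316) lost it on removal of day 2 replicate 2. Cyr61 (0.0644), Fosl2 (0.0845), Xbp1 (0.108), Fdft1 (0.0989) and Nsdhl (0.25) lost the call on removal of day 1 replicate 1, and Cdkn1a (0.111) lost it with a GC offset.

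Glycolysis and hypoxia genes had 4 higher, 4 lower and 18 not called of 26 tested. Pdk1, a kinase that turns pyruvate away from the mitochondria, had 47.4 and 39.6 CPM at day 2, against 205 and 198 at day 1 (log2 -2.21 ± 0.19, adjusted p = 0.000186). The phosphofructokinase gene Pfkp had 4.13 and 6.04 CPM at day 2, against 30.7 and 35.8 at day 1 (log2 -2.71 ± 0.32, adjusted p = 0.000764). The glucose transporter gene Slc2a3 had 404 and 389 CPM at day 2, against 727 and 703 at day 1 (log2 -0.85 ± 0.16, adjusted p = 0.00659). The lactate dehydrogenase genes went apart, with Ldha at 308 and 200.4 CPM at day 2, against 107 and 146 at day 1 (log2 1.01 ± 0.26, adjusted p = 0.0265) and Ldhb at 17.6 and 21.5 CPM at day 2, against 41.6 and 53.2 at day 1 (log2 -1.28 ± 0.26, adjusted p = 0.0107). Hk2 was not called. Ldha has many processed copies that could share its reads. Of 20 members of the list of microRNA hosts in the table, 15 were below the filter. Not all are host transcripts: Mir10a is annotated as a microRNA gene of 110 bases and had 0 counts on both days. C130071C03Rik, a host of miR-9, rose (1.96 ± 0.54, adjusted p = 0.0342), and Mir17hg, at 54.3 and 49.8 CPM at day 2, against 33.6 and 26.6 at day 1, was not called. Glycolysis genes called higher numbered 0 on removal of day 2 replicate 1, 1 on removal of day 2 replicate 2, 1 on removal of day 1 replicate 1 and 10 on removal of day 1 replicate 2. Glycolysis genes called lower numbered 2 on removal of day 2 replicate 1. Slc2a3 (0.0726), Ldha (0.216), Ldhb (0.116) and C130071C03Rik (0.0987) lost the call on removal of day 2 replicate 1, and Slc2a3 (0.0808) and C130071C03Rik (0.144) lost it on removal of day 2 replicate 2. Ldha (0.136) and C130071C03Rik (0.152) lost the call on removal of day 1 replicate 1.

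**Figure D4:**
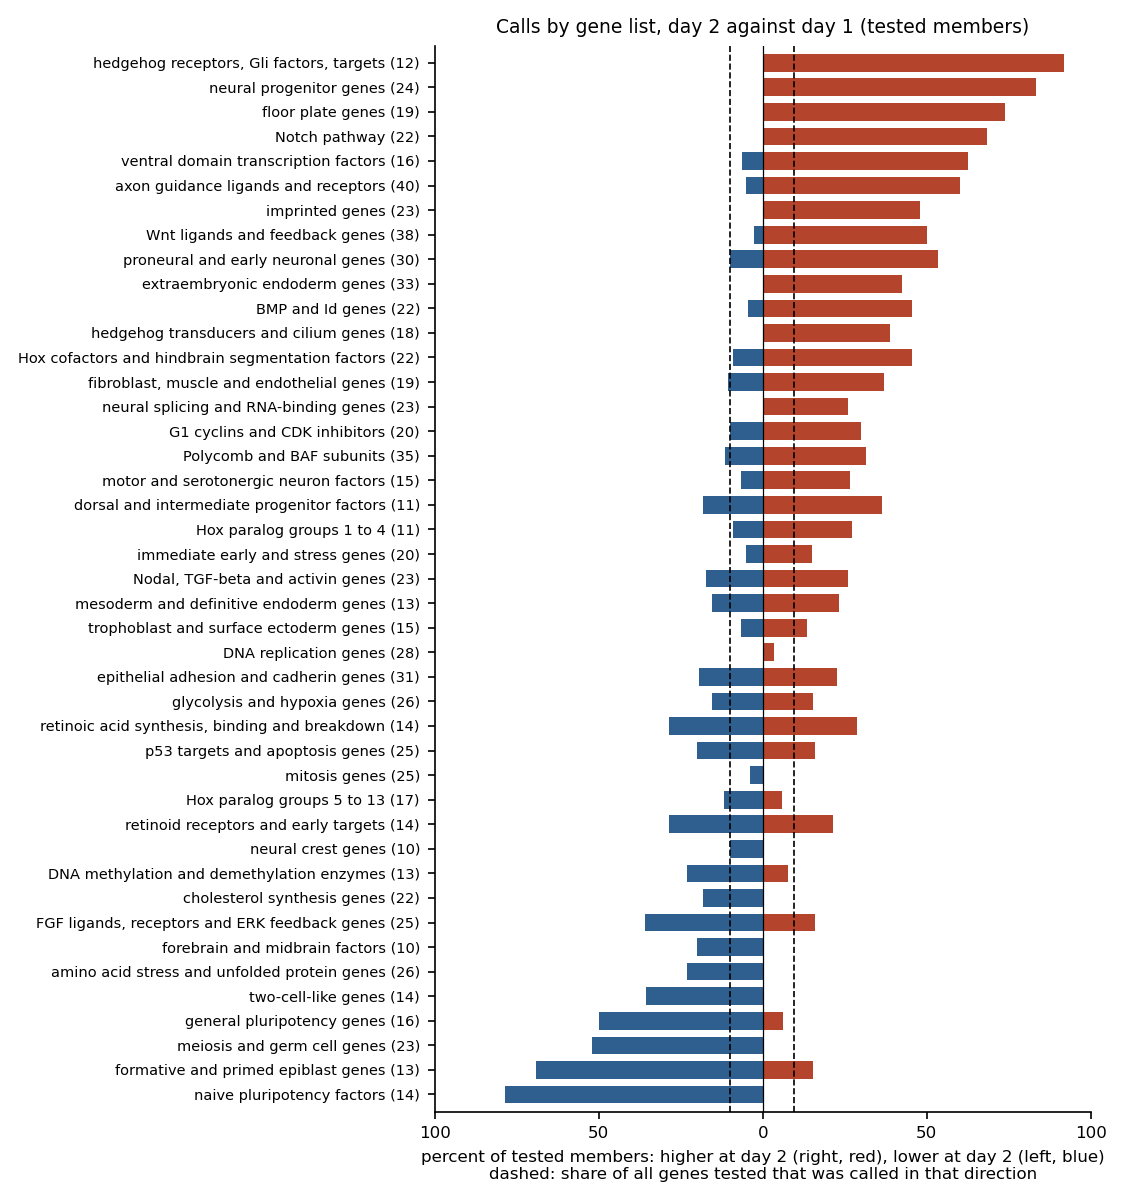
Percent of the tested members of each list of at least 10 that was higher (red, right) or lower (blue, left) at day 2, with the number tested in brackets. Dashed lines mark the shares over all genes tested, 9.65% higher and 9.99% lower, and hedgehog receptors, Gli factors and targets (11 of 12 higher) and naive pluripotency factors (11 of 14 lower) stand at the ends.

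The neighbouring days place these changes on the 4-day course, as a description with no test. Some genes had their highest mean at day 1: Stra8 averaged 74.2 ± 23.1 CPM at day 0, 1374 ± 82.9 at day 1, 168 ± 101 at day 2 and 6.95 ± 4.17 at day 3 (mean ± SD, n = 2 each). Hoxb1 ran at 3.63 ± 0.662, 51.6 ± 1.5, 12.2 ± 6.59 and 0.534 ± 0.443 CPM over the same days. Others had their highest mean at day 2, such as Fgf15, with 11.2 ± 0.466, 0.342 ± 0.178, 44.6 ± 4.69 and 10.2 ± 8.28 CPM, and Wnt1, with 0.119 ± 0.168, 0.124 ± 0.131, 6.11 ± 0.461 and 0.9 ± 0.293 CPM. Others were higher again at day 3, such as Shh, which averaged 38.6 ± 17.3 CPM at day 2 and 197 ± 116 CPM at day 3, and Ntn1, which averaged 499 ± 89.5 and 1064 ± 421 CPM. Ptch1 was at 490.3 ± 34.7 CPM at day 2 and 456 ± 3.68 CPM at day 3.

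**Figure D5:**
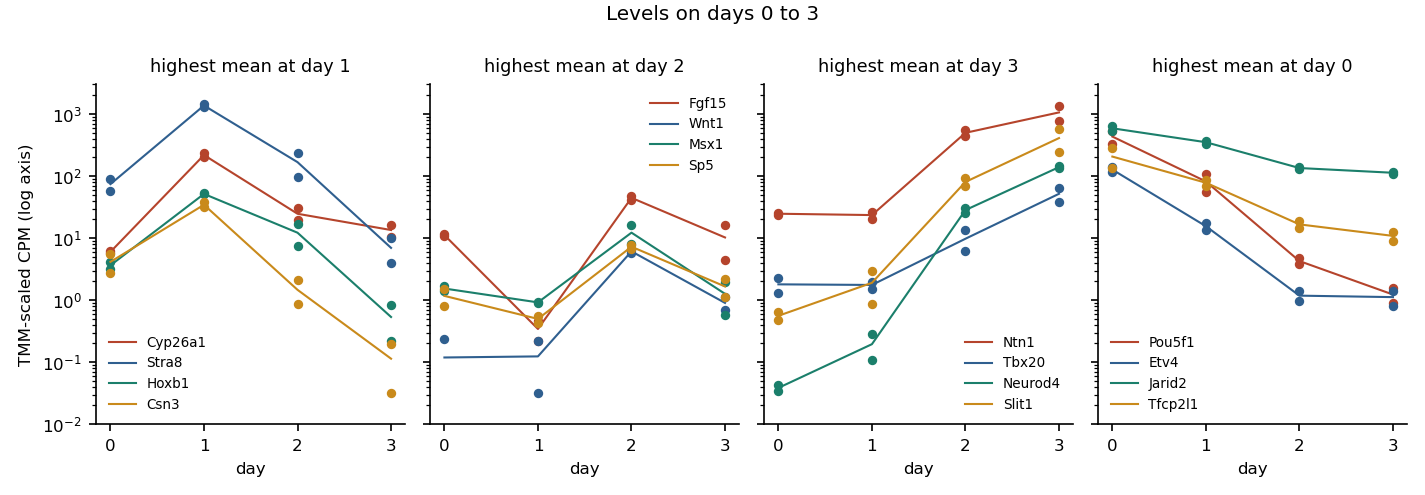
TMM-scaled CPM (log axis) of 16 genes on days 0 to 3, with a point for each library and a line through the means of the 2 libraries a day, and libraries at 0 not drawn. The panels hold genes whose highest mean was at day 1, day 2, day 3 or day 0, with Stra8 reaching 1374 CPM at day 1.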

How the data were processed

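Expression was measured by sequencing of polyadenylated RNA (ZymoPure extraction, Illumina TruSeq, per the labels' protocols). Builds GRCm38 and mm10 and the tools limma, Cufflinks 2.1.1, HTSeq 0.6.1, TopHat2 2.0.4, bcl2fastq 1.8.3 and CASAVA are named in the submitters' processing notes. The sources used here give neither the role of each tool nor the annotation and strand setting of the counting. The deposited estimated counts held fractions for 104 of 38197 genes and were rounded. The deposited log2 values equal log2 CPM of the count plus 0.5, to within 4.97e-14, and FPKM values were deposited by the authors. All columns were matched to libraries by the labels.

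Counts of the 8 unsorted libraries were fitted with edgeR 4.0.16 under R 4.3.3 (TMM, filterByExpr with a minimum count of 10, quasi-likelihood F test, group means, contrast day 2 minus day 1, Benjamini-Hochberg threshold 0.05). The SE is the log2 fold change over the square root of F. Totals of the 4 libraries ran from 26926637 to 30097304, and floors cover counting error only. The SE rests on F and so also takes in the spread between the 8 unsorted libraries. The replicate number was not used as a block. Genes with 3 or fewer counts over a day get no fitted fold.

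Alternatives were RLE size factors, no filter, DESeq2 1.42.0, 4 or 11 libraries, a replicate block, a floor of 1 on the absolute log2 fold change, a GC offset (lowess span 0.3, longest GENCODE M21 transcript), limma 3.58.1 on log2(FPKM + 1) or log2(FPKM + 0.1) with an FPKM of at least 1 in 2 libraries or without that filter, limma on the deposited log2 values, and each library left out. Fits were tested on simulated data. There the main fit recovered 30.61% of 98 changes of 2-fold and 78.35% of 97 changes of 4-fold, and made 11 false calls. DESeq2 recovered 54.08% and 79.38% of the same changes and made 39 false calls. A gene not called may thus still have changed, and a gene called may not have changed.

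The comparison and the 44 gene lists (980 genes, 962 in the table) were chosen with earlier results of these data known. Genes named were the 12 largest log2 fold changes each way (called, at least 5 CPM in the higher day, no overlap, no clone symbols), a panel, up to 3 called members a list by adjusted p, and microRNA hosts. Other list members named were chosen after their values were seen. Some genes that the rule names are not reported here. Positions are GENCODE M21, matched by symbol.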

Additional observations from a re-analysis of the deposited data

How the results depend on the processing

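The 1623 higher and 1679 lower genes stayed within 1.5 times under RLE size factors (1650 and 1660), DESeq2 (2069 and 1901), 4 libraries (1596 and 1688), 11 libraries (2090 and 2156), the deposited log2 values (1420 and 1921), a minimum absolute log2 fold change of 1 and a replicate block (1190 and 1226). Same-numbered libraries of day 2 and day 1 deviated with a correlation of 0.278, which ran from -0.633 to 0.278 over pairs of days. The labels do not say that the numbers pair the libraries. The correlation cannot decide this, since differences between replicates also ran with GC content. Without a filter on low counts 24339 genes were tested and 2382 were higher and 1988 lower. A GC offset gave 1862 higher and 2829 lower genes, with a median log2 fold change of -0.0969, and 1668 and 2521 with the replicate block. Deposited FPKM gave 927 and 1277 with pseudocount 1, 886 and 1217 with pseudocount 0.1, and 776 and 1381 without the filter. The cause of these moves was not tested. Leaving out 1 library gave from 593 (without day 2 replicate 1) to 2493 (without day 1 replicate 2) higher genes and from 408 to 1788 lower genes, in the same order of libraries. Each of these fits leaves a lone library in a group, which is assumed to vary like the others.

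Of 46 list counts of 3 or more, 42 stayed within 1.5 times with the replicate block, 41 with the GC offset, 33 with log2(FPKM + 1) and 17 with log2(FPKM + 1) without the filter. On removal of 1 library, 15 did so with day 2 lacking replicate 1, 23 with day 2 lacking replicate 2, 31 with day 1 lacking replicate 1 and 43 with day 1 lacking replicate 2. Of the called genes that the rule or the text names, Cdh5 apart, 250 of 270 kept the call with the replicate block and 249 with the GC offset. By DESeq2 266 of 270 kept it, and with log2(FPKM + 1) 214 of 256. Without the FPKM filter 172 of 270 kept it, and with 1 library removed 175 with day 2 lacking replicate 1, 194 with day 2 lacking replicate 2, 211 with day 1 lacking replicate 1 and 248 with day 1 lacking replicate 2. The replicate block ended calls of Xbp1, Mcm7, Gata6, Utf1, Ldha, Gas1, Gli3, Hoxa5, Hoxa7, Hmmr, Aldh1a2, Crabp2, Bmp7, Hey2, Nsdhl, Sufu, Tph2 and Zfp352, among others. Of genes that kept the call on removal of each library and with the GC offset, Lhx4, Tbx20, Cckar, Dcx, Nkx2-2 and Dcn lost it with log2(FPKM + 1), Lhx4, Notch1 and Asz1 with log2(FPKM + 0.1), and Lhx4 with the deposited log2 values. Tet3, Dsg2, Col4a1, Cdkn1c, Scube3, Jun, Neurog2, Tgm2, Eya1, Nkx6-2, Axin2, Sfrp2, Notch3 and Sall2 lost it only with log2(FPKM + 1) without the filter. For genes with 3 or fewer counts over a day, no fitted fold can be given at this depth.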
